A study of Mus musculus with 10 samples.

Results

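Growth factors of the EGF family and their ErbB receptors were followed in mouse lung tumors with and without the glucose transporter Glut1. The set held 10 genes, chosen by symbol, of the 39017 genes in the deposited count table: the ligands Areg, Ereg, Hbegf, Btc, Tgfa, Egf and Nrg1, and the receptors Egfr, Erbb2 and Erbb3. All 10 passed the filter on low counts. RNA was sequenced from 10 lung tumors of male C57BL/6 mice, 5 from KP mice (the controls, labelled heterozygous fl/wt for Glut1 and described as WT) and 5 from KPG1 mice (the Glut1 knockout, labelled homozygous fl/fl). By the study's methods, KP controls could carry either intact or heterozygous Glut1, so what each KP tumor carried is not settled by the labels. Tumors of both groups were started by Ad5SPC-Cre, an adenovirus given into the trachea that drives Cre recombinase from the surfactant protein C promoter, which is active in alveolar type 2 cells. They were taken 18 weeks and 6 days later, macrodissected, dissociated and depleted of CD45-positive immune cells with magnetic beads. Every control thus also carried the virus, the Cre and the KP alleles. The labels give no ages and do not say whether each tumor came from a separate mouse, so the p-values measure the spread between these samples.

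EGF family ligands are made as membrane-anchored precursors and are released by proteases called sheddases. Areg, Ereg, Hbegf, Btc, Tgfa and Egf bind the EGF receptor, encoded by Egfr, whereas Nrg1, a neuregulin, binds the receptor encoded by Erbb3. The Erbb2 product has no known ligand of its own and pairs with the other receptors, and the Erbb3 product has a weak kinase and signals through its partners. Downstream, the Ras, ERK and PI3 kinase pathways are switched on, and ERK induces early response genes and its own inhibitors. In lung, the family is known for its part in epithelial repair and in lung adenocarcinoma.

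Library totals ran from 32427029 to 49534284 counts. Slc2a1, which encodes Glut1, was at 102 ± 25.4 CPM (mean ± SD of 5 tumors; CPM are counts set against the scaled library total) in KP, and KPG1 tumors were at 50.1 ± 10.1 CPM. The groups did not overlap (exact permutation test, two-sided, p = 0.00794, the smallest that 5 tumors against 5 allow), and the log2 fold change was -1.01 (SE 0.20). Its adjusted p in limma was 0.0675. One KP tumor, KP 5, stood apart from the other KP tumors on the first principal component (71.8, against -74.0 to -20.1), which held 28.0% of the variance, and its summed proliferation markers were at 41.5 CPM, against 186 to 244 CPM in the other KP tumors and 208 to 362 CPM in KPG1 tumors. KPG1 tumors ran from -1.71 to 30.4 on that component. Without KP 5, Slc2a1 passed the adjusted threshold (log2 fold change -1.14, adjusted p in limma = 0.0220). KP 5 was singled out from these same data and had the lowest Slc2a1 of the KP tumors (71.7 CPM), so leaving it out widens that difference. Passes without KP 5, here and below, are therefore descriptions and lend no support to a call. Values without KP 5 are given beside each member whose call moved and beside some other genes. Changes in size without KP 5 are not given for every gene.

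Per unit of transcript length, Areg, encoding amphiregulin, was the most abundant member in both genotypes. In TPM, which divide the counts by exon length before scaling and were computed here, KP tumors held 853 ± 106 of Areg, 268 ± 70.5 of Hbegf, 181 ± 23.3 of Erbb3 and 169 ± 47.5 of Ereg (SD, n = 5). Hbegf overlapped Erbb3, and Erbb3 overlapped Ereg, so those neighbors in the order did not differ beyond their spread. Erbb2 followed at 65.0 ± 6.17, Tgfa at 34.9 ± 8.49 and Btc at 21.5 ± 8.67 TPM. Egfr (2.36 ± 2.10), Egf (1.86 ± 1.38) and Nrg1 (0.76 ± 0.61) closed the order in overlapping ranges. In KPG1 tumors Areg again led, at 480 ± 78.1 TPM. Erbb3 (156 ± 29.6), Hbegf (106 ± 34.6), Ereg (93.4 ± 17.5) and Erbb2 (68.3 ± 10.9) came next, each overlapping the one after it. Tgfa (26.8 ± 3.10) and Btc (17.5 ± 0.82) were clear of their neighbors. Egf (2.55 ± 1.29), Nrg1 (0.68 ± 0.43) and Egfr (0.57 ± 0.03) were last.

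Added up, the 7 ligands reached 1350 ± 161 TPM in KP, with a range from 1179 to 1587, and 727 ± 95.6 TPM in KPG1, from 568 to 819. The highest KPG1 tumor lay below the lowest KP tumor. Areg, Hbegf and Ereg made up 94.8% to 96.7% of the ligand sum in KP tumors and 91.6% to 94.2% in KPG1 tumors. The 3 receptors summed to 248 ± 26.2 TPM in KP and 225 ± 39.7 TPM in KPG1, and these ranges overlapped. In RNA taken from a whole CD45-negative tumor fraction, fewer cells of a type and less RNA per cell cannot be told apart.

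**Figure D1:**
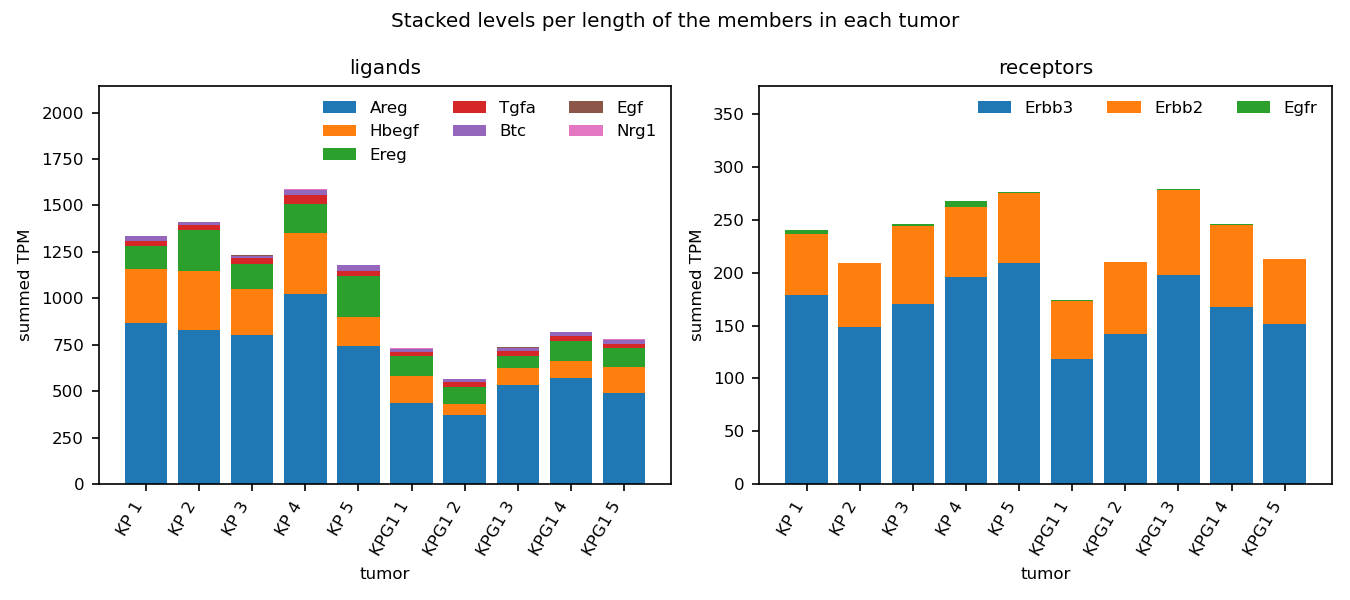
Stacked bars of TPM for the 7 ligands (left) and the 3 receptors (right), 1 bar per tumor, with tumors on the horizontal axis and summed TPM on the vertical axis. Ligand bars of KP tumors stand between 1179 and 1587 TPM and those of KPG1 tumors between 568 and 819 TPM, while the receptor bars of the genotypes overlap.

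Areg was the 1 member that passed the test across all genes. It read 276, 307, 297, 360 and 289 CPM in KP 1 to KP 5, and 167, 136, 174, 201 and 177 CPM in KPG1 1 to KPG1 5. Every KPG1 tumor lay below every KP tumor, and the spread within each genotype was small, 1.30-fold from lowest to highest in KP and 1.49-fold in KPG1. The log2 fold change was -0.84 (SE 0.13, 95% interval -1.13 to -0.56), which put KPG1 at 55.7% of KP (limma with voom, Benjamini-Hochberg adjusted p = 0.0314). By p-value, Areg ranked 19 among the 16216 genes tested. The adjusted p was close to the threshold. It was 0.0214 without KP 5, but from 0.0522 to 0.105 when any other single library (KP 1 to KP 4, or any KPG1 tumor) was left out, with log2 fold changes from -0.91 to -0.77 over all 10 such fits. With the sample number of the titles as a covariate, the log2 fold change was -0.69 and the call was lost (adjusted p = 0.299). In that same fit the targeted gene Slc2a1 was at -0.88 (adjusted p in limma = 0.371), and 4 genes were called lower and 4 higher in all.

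Areg, Ereg and Btc are neighbors on mouse chromosome 5. Areg spans 91139599 to 91148432 on the plus strand of mm10, with no other annotated gene over it. Stretches of 250 bases just before the RefSeq starts (GRCm38.p6, the assembly that mm10 represents) are shown for Areg, the member that passed the test, and for Btc, a member of the same cluster that did not. RefSeq windows were at hand for 6 of the 10 members, and those of Ereg, Hbegf, Nrg1 and Erbb3 were not analysed here. Each runs 5′ to 3′ toward the start of its gene, and capitals mark a full cAMP response element, TGACGTCA.
Areg, chr5:91139349-91139598, plus strand: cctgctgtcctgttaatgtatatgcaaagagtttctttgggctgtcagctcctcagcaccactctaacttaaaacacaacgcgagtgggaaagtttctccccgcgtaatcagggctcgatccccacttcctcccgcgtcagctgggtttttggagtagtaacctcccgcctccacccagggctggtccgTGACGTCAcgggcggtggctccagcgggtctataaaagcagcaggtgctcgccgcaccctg
Btc, chr5:91402995-91403244, minus strand: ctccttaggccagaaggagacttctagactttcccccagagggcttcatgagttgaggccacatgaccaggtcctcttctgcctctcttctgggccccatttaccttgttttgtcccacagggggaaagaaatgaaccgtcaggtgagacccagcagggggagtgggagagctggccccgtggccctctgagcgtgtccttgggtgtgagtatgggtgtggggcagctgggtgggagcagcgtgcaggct
The Areg stretch holds the full element at 61 to 54 bases before the start, and 1 further match to its shorter core, TGACG, on the opposite strand at 115 to 111 bases before the start. The full element reads the same on both strands and contains 2 overlapping cores. The Btc stretch has no full element and 1 core, at 113 to 109 bases before the start. Of 32851 such stretches in RefSeq, 1.55% hold the full element on either strand and 17.8% the core. Letters of an AP-1 site (TGANTCA, in 6.75% of all stretches), an E-box (CACGTG, 6.02%) or a CArG box (1.47%) were in neither. The stretches of Egf, Tgfa and Egfr held no match to the element, its core, an AP-1 site, an E-box or a CArG box. That of Erbb2 held 1 core on the opposite strand, at 171 to 167 bases before the start, and no other match. These are matches of letters and say nothing of binding.

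Ereg, encoding epiregulin, lies beside Areg at 91074622 to 91093646 on the plus strand of the same chromosome, with the annotated gene Gm19610 on the opposite strand. It read 132, 275, 166, 183 and 291 CPM in KP 1 to KP 5, and 140, 108, 73.5, 128 and 121 CPM in KPG1 1 to KPG1 5. The genotypes overlapped at 1 point, since KP 1 was below KPG1 1. The fitted log2 fold change of -0.84 (SE 0.24, 95% interval -1.38 to -0.31) was the size of that of Areg, but the spread in KP was wider, 2.21-fold, and the adjusted p in limma was 0.234. DESeq2 put it at an adjusted p of 0.0277.

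Hbegf, encoding heparin-binding EGF-like growth factor, lies on chromosome 18 of mm10 at 36504927 to 36515805, on the minus strand. Its CPM values were 372, 465, 370, 457 and 238 in KP 1 to KP 5 and 216, 90.7, 121, 130 and 202 in KPG1 1 to KPG1 5. The genotypes did not overlap, although KP 5 came within a small margin of KPG1 1. Its fitted log2 fold change of -1.36 (SE 0.26, 95% interval -1.94 to -0.79) exceeded that of Areg, and its adjusted p in limma was 0.0659. Without KP 5 the log2 fold change was -1.53 and the adjusted p was 0.0252, and without any other single library the adjusted p ran from 0.0796 to 0.220. A weight per library (adjusted p = 0.0156) and DESeq2 (adjusted p = 0.000286) also put Hbegf past the threshold. With the sample number of the titles as a covariate, the log2 fold change was -0.68 (adjusted p = 0.371). Those sample numbers were unevenly divided, from 6 to 16 in KP and from 1 to 10 in KPG1, so a change with sample number and the genotype cannot be fully told apart.

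Other ligands were lower in level. Tgfa, encoding transforming growth factor alpha, read 54.6 to 93.5 CPM in KP (median tumor 61.9) and 46.4 to 59.9 CPM in KPG1, with overlap, and its log2 fold change was -0.37 (SE 0.15, adjusted p in limma = 0.383). Btc, encoding betacellulin, spread from 17.0 to 45.4 CPM in KP and from 21.8 to 25.1 CPM in KPG1, which is 2.66-fold against 1.15-fold from lowest to highest. Its log2 fold change was -0.22 (95% interval -0.78 to 0.34, adjusted p in limma = 0.781), and -0.04 without KP 5, the highest of the tumors. For Egf, which gives the family its name, values were 12.7, 5.15, 5.58, 2.95 and 3.61 CPM in KP and 6.84, 4.45, 14.2, 6.92 and 9.17 CPM in KPG1. Egf had a positive fitted log2 fold change, 0.58, with an interval from -0.31 to 1.47 that included no change (adjusted p in limma = 0.616). Nrg1 had from 25 to 223 counts in a library and a log2 fold change of -0.04 with a wide interval, -1.36 to 1.28 (adjusted p in limma = 0.986). Its values spread 8.51-fold in KP and 5.17-fold in KPG1, and without KP 5, the lowest tumor, the log2 fold change was -0.48 (adjusted p = 0.674).

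**Figure D2:**
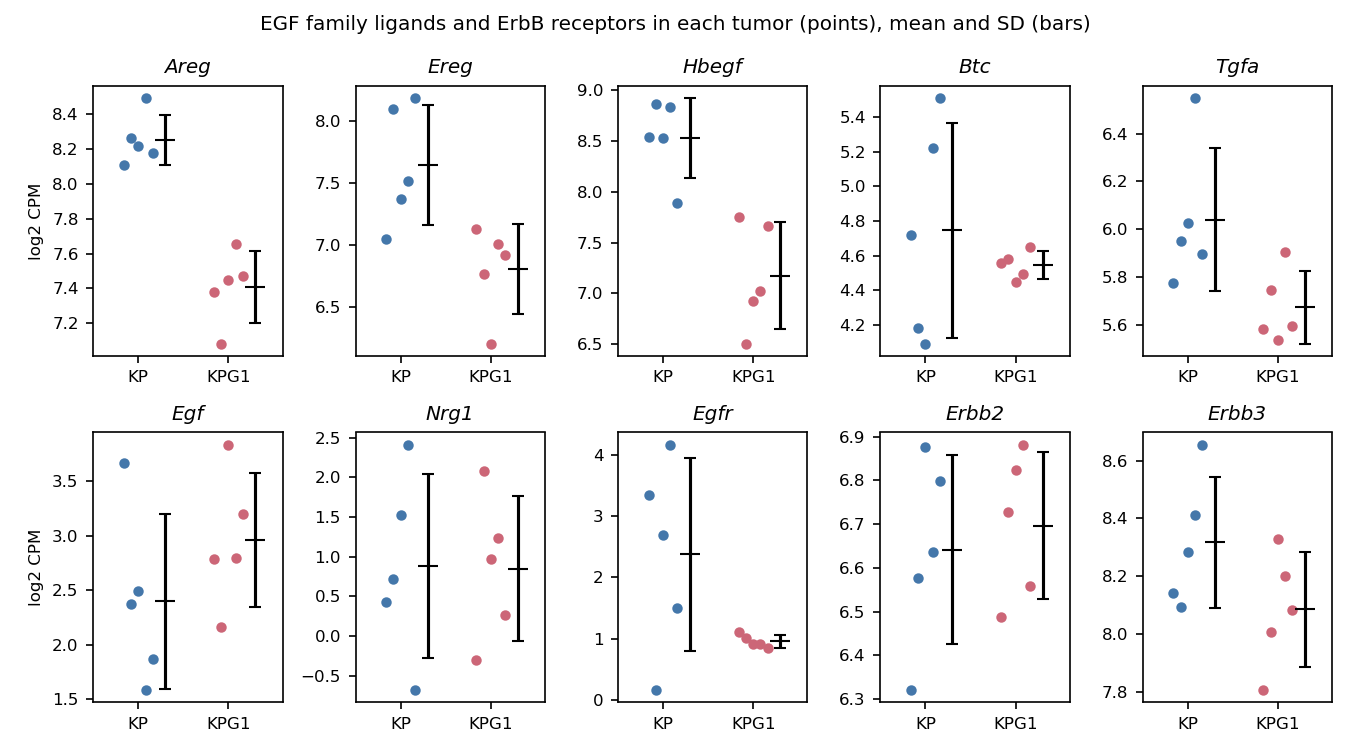
Log2 CPM of each member in the 5 KP tumors (blue) and the 5 KPG1 tumors (red), 1 point per tumor, with the mean and SD as black bars; each panel has its own vertical axis. For Areg and Hbegf the KPG1 points all lie below the KP points, and for the other 8 members the genotypes overlap.

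Among the receptors, Egfr differed most between KP tumors. It read 10.2, 1.07, 6.42, 17.9 and 2.78 CPM in KP 1 to KP 5, a 16-fold range, and 2.12, 1.96, 1.84, 1.83 and 1.75 CPM in KPG1 1 to KPG1 5, a 1.21-fold range. KP 2 lay below all KPG1 tumors, and the other 4 KP tumors lay above them. The log2 fold change was -1.47 (SE 0.68, 95% interval -2.96 to 0.01, adjusted p in limma = 0.436). It was -1.98 without KP 2 (adjusted p = 0.203), -1.74 without KP 5 (adjusted p = 0.229) and -1.01 without KP 4 (adjusted p = 0.639), and DESeq2 gave -2.03 (adjusted p = 0.0145), while it was -0.72 with the sample number as a covariate (adjusted p = 0.838). Counts of Egfr ran from 34 to 757 in a library. The annotated antisense gene Egfros overlaps Egfr.

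Erbb2 read from 79.8 to 117 CPM in KP and from 89.7 to 118 CPM in KPG1. Its log2 fold change was 0.05 (SE 0.13, 95% interval -0.24 to 0.35, adjusted p in limma = 0.905). The Mien1 gene overlaps it on the opposite strand. Erbb3 was the most abundant receptor, with 273 to 403 CPM in KP and 224 to 321 CPM in KPG1, and its log2 fold change was -0.23 (SE 0.14, 95% interval -0.54 to 0.08, adjusted p in limma = 0.563). For both, a change within the interval cannot be told from none.

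Taking the 10 members as a set, 8 had negative and 2 positive fitted log2 fold changes, with a median of -0.30, beside a median of 0.02 over all genes tested. With the adjusted threshold of 0.05, KPG1 tumors were lower for 1 member, where 0.111% of all tested genes were. None was higher in limma, edgeR or DESeq2, and 0 were higher at an unadjusted p under 0.05 in limma; over all genes the shares that were higher were 0.0617% adjusted and 5.26% unadjusted. At an unadjusted p under 0.05, 4 members (Areg, Hbegf, Ereg and Tgfa) were lower, where 6.31% of all genes were. The genotypes did not overlap for 2 members, both lower in KPG1, beside 1.76% of all genes lower and 1.05% higher without overlap. Members were chosen with earlier results of these data known, so these counts do not test the set.

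**Figure D3:**
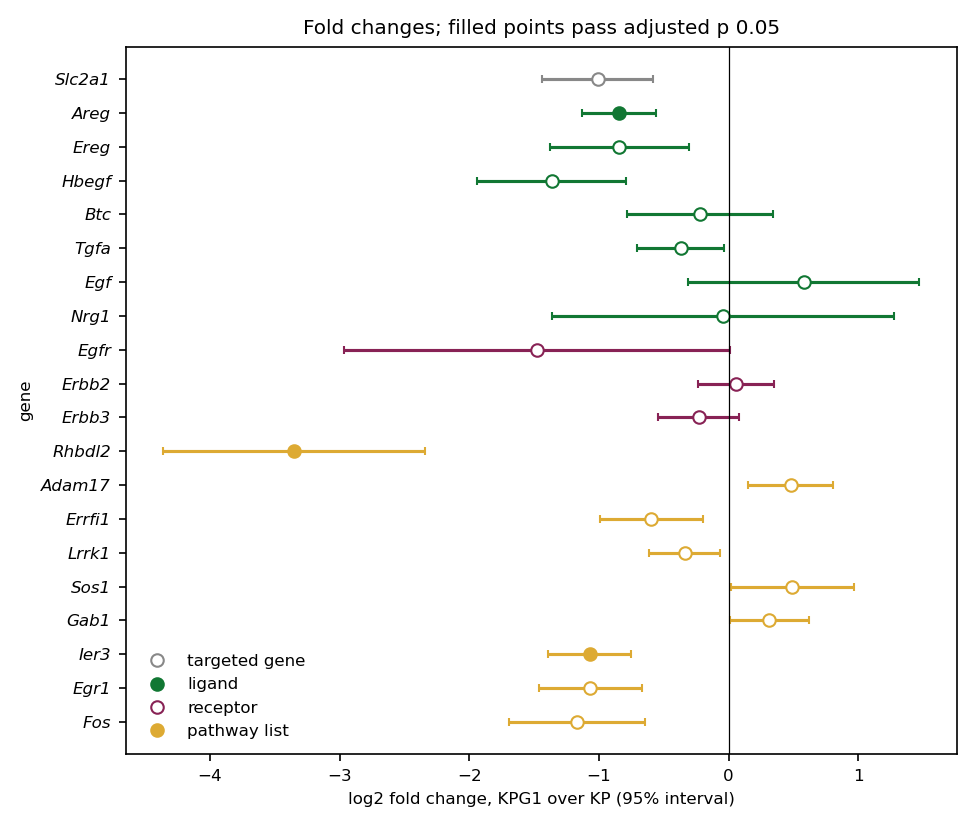
Log2 fold changes of KPG1 over KP (horizontal axis) with 95% intervals for Slc2a1, the 10 members and 9 genes of the pathway list, 1 gene per line. Filled points passed an adjusted p of 0.05, namely Areg at -0.84, Rhbdl2 at -3.35 and Ier3 at -1.07, while open points did not pass, whether or not their intervals reach 0.

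Whether members varied together from tumor to tumor was tested for 5 pairs after the mean of each genotype was subtracted. Erbb2 and Erbb3 gave Pearson r = 0.68 over 10 tumors (exact permutation within genotype, two-sided, p = 0.0515, adjusted over the 5 pairs 0.258), with Spearman rho = 0.64 (exact permutation p = 0.0722). Without the 2 tumors farthest from the median of Erbb2, r was 0.49. Areg and Hbegf gave r = 0.47 (exact permutation p = 0.221, adjusted 0.553) and rho = 0.37 (exact permutation p = 0.360), and r was 0.36 without the 2 farthest tumors. It was 0.10 without KPG1 2, the tumor lowest in both. For Areg with Ereg (r = 0.11, exact permutation p = 0.775, rho = 0.04, p = 0.918), r was 0.02 without the 2 farthest tumors. For Ereg with Hbegf (r = 0.10, exact permutation p = 0.773, rho = 0.18, p = 0.631), it was -0.02, but 0.51 when KP 5 alone was left out (adjusted p = 0.363 by exact permutation). Egfr with Erbb3 gave r = 0.07 (exact permutation p = 0.896), rho = -0.21 (exact permutation p = 0.597) and r = -0.76 without the 2 farthest tumors (adjusted p = 0.0625), so its sign rested on those tumors. Leaving out KP 5 alone gave r = 0.35 for that pair and 0.22 for Areg with Ereg. No pair passed an adjusted p of 0.05 in any of these tests.

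**Figure D4:**
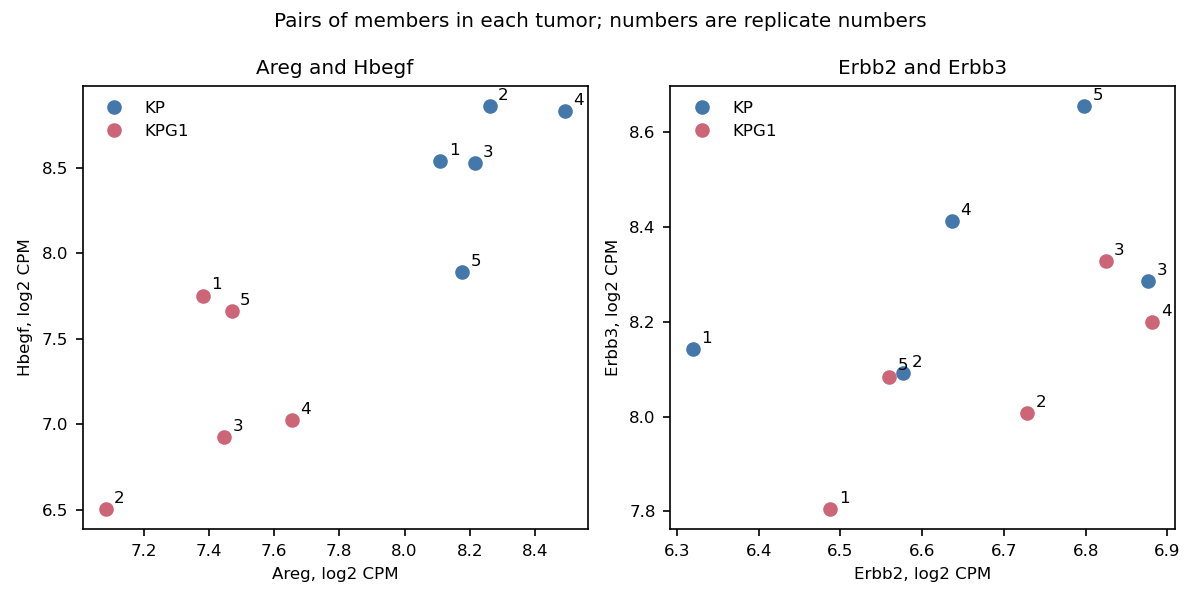
Log2 CPM of Areg against Hbegf (left) and of Erbb2 against Erbb3 (right), 1 point per tumor, KP in blue and KPG1 in red, with replicate numbers beside the points. KP and KPG1 separate along both axes on the left, KPG1 2 lies lowest on both, and on the right the genotypes mix.

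Beyond the members, a list of 65 genes that make, release, carry or dampen EGF receptor signals was read, of which 61 passed the filter on low counts. Of these, 2 passed the adjusted threshold in limma as lower in KPG1, beside 0.111% of all genes tested. The lower genes were also 2 in edgeR, but 10 in DESeq2, where 423 of 16216 genes were lower. In limma, edgeR and DESeq2, 0 were higher. At an unadjusted p under 0.05 in limma, 12 were lower and 3 higher, beside 6.31% and 5.26% of all genes tested. The list had a median log2 fold change of -0.05, beside 0.02 for all genes. It was chosen with earlier results of these data known, so its counts beside the shares of all genes are a description and no test. In 5 genes, Rhbdl2, Ier3, Egr1, Fos and Myc, the KPG1 tumors all lay below the KP tumors, as in 1.76% of all genes tested; Myc was added to the named genes after its values were seen. Nrg2, Nrg3, Erbb4 and Rhbdl1 were not tested, with at most 2, 0, 2 and 18 counts in any library. Thus Erbb4, encoding the remaining ErbB receptor, gave at most 2 counts.

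Of the sheddases and trafficking genes, 10 of 11 were tested. Rhbdl2, encoding a rhomboid protease that cuts within membranes, fell. It read 3.40, 6.28, 5.42, 6.75 and 12.3 CPM in KP 1 to KP 5, and 0.459, 1.11, 0.317, 1.11 and 0.488 CPM in KPG1 1 to KPG1 5. KP tumors were thus all above KPG1 tumors, at a low level, with at most 537 counts in a library and a log2 fold change of -3.35 (SE 0.46, adjusted p in limma = 0.0240). Adam17, encoding the main sheddase of Areg, Ereg, Hbegf and Tgfa, read from 64.8 to 111 CPM in KP and from 102 to 131 CPM in KPG1, and its log2 fold change was 0.48 (SE 0.15, adjusted p in limma = 0.260). The median of this group was 0.10.

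The 14 feedback inhibitors of the receptor and the 17 adaptors close to it had adjusted p-values of at least 0.244. At an unadjusted p under 0.05, 2 feedback inhibitors were lower and 2 adaptors were higher, beside 6.31% and 5.26% of all genes. Errfi1, whose product binds and blocks the EGF receptor kinase, had a log2 fold change of -0.60 (SE 0.18, adjusted p in limma = 0.244), and Lrrk1, encoding a kinase that acts in EGF receptor trafficking, of -0.34 (SE 0.13, adjusted p = 0.334). Sos1, encoding an exchange factor that loads Ras with GTP, had 0.49 (SE 0.22, adjusted p = 0.414), and Gab1, encoding a docking protein, 0.31 (SE 0.14, adjusted p = 0.416). The medians of the feedback inhibitors and of the adaptors were -0.10 and 0.09.

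Genes that ERK signaling induces made up the group with the lowest median, -0.46 over 18 genes. In this group 9 genes were lower at an unadjusted p under 0.05, 0 were higher, and 4 were lower without overlap, beside 6.31%, 5.26% and 1.76% of all genes, while 1 passed the adjusted threshold. Since the list was chosen with earlier results of these data known, these counts are a description and no test of the group. The other direction was also present, with 6 of the 18 genes fitted higher, all with overlap. They were Etv5 (log2 fold change 0.57), Etv1 (0.56), Spred1 (0.35), Spred2 (0.11), Spry4 (0.08) and Spry2 (0.06). Dusp6 (-0.30), Spry1 (-0.17) and Etv4 (-0.04) were fitted lower with overlap, at adjusted p-values in limma of at least 0.469. Larger negative values with overlap were those of Dusp5 (-2.44), Fosl1 (-1.74), Junb (-0.94), Dusp4 (-0.90) and Phlda1 (-0.86). Each had an unadjusted p under 0.05 in limma, and their adjusted p-values were at least 0.0916. These genes were named after their values were seen. The gene past the adjusted threshold was Ier3, an early response gene, which was lower in KPG1. Ier3 read 169, 146, 196, 166 and 141 CPM in KP 1 to KP 5, and 104, 77.7, 72.7, 65.0 and 72.8 CPM in KPG1 1 to KPG1 5. Its log2 fold change was -1.07 (SE 0.15, adjusted p in limma = 0.0240). Every KPG1 tumor was below every KP tumor. Egr1 and Fos, which encode early response transcription factors, had log2 fold changes of -1.07 (SE 0.18, adjusted p in limma = 0.0501) and -1.17 (SE 0.24, adjusted p = 0.0852), also without overlap. Myc had -0.62 (adjusted p = 0.142). Without KP 5, Egr1 (adjusted p = 0.0261) and Fos (adjusted p = 0.0497) passed the threshold, and 9 genes of the whole pathway list were lower in place of 2. Without KP 5, Sos1 was higher (adjusted p = 0.0391). Leaving out each of the other 9 libraries in turn gave from 0 to 2 lower calls in that list. Rhbdl2 and Ier3 each passed in 3 of those 10 fits.

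**Figure D5:**
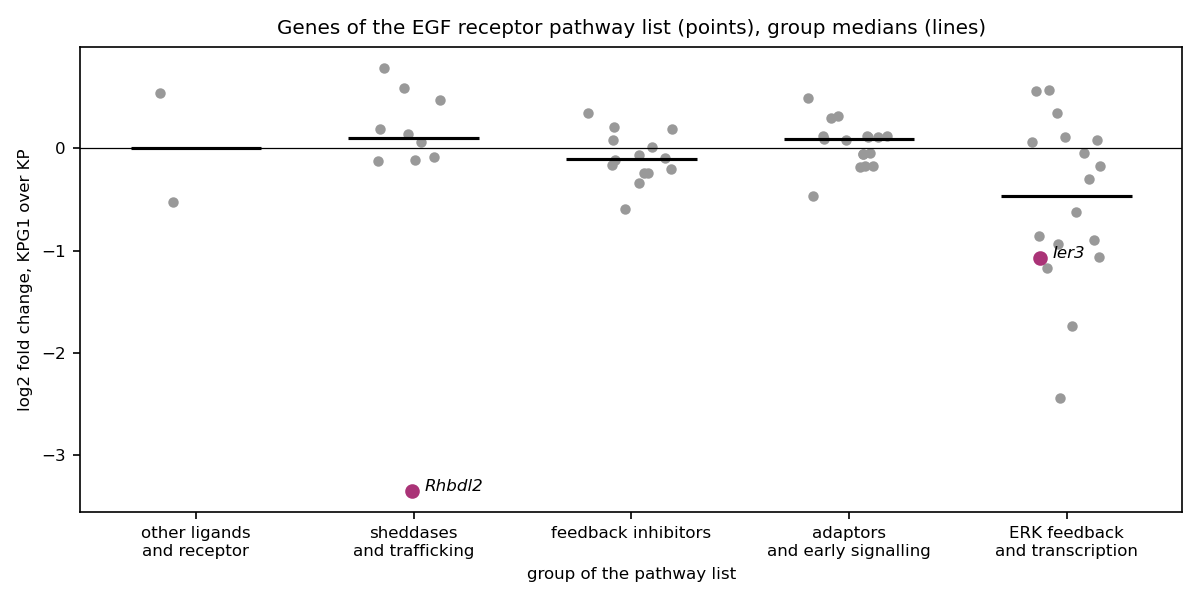
Log2 fold changes of KPG1 over KP (vertical axis) for the 61 tested genes of the pathway list, 1 point per gene, in 5 groups, with group medians as lines. The larger colored points, Rhbdl2 at -3.35 and Ier3 at -1.07, passed the adjusted threshold, and the median of the ERK feedback and transcription group lies at -0.46.

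Some markers of cell types did not overlap between the genotypes, but no tested marker passed the adjusted threshold in either direction. Those without overlap are named below, beside 1.76% of all genes lower and 1.05% higher without overlap. Alveolar type 2 markers were abundant in all tumors, with sums from 16909 to 54455 CPM in KP and from 41677 to 77623 CPM in KPG1, and none of the 6 was at 0. All 6 had positive fitted log2 fold changes (median 0.64), and Abca3 was higher without overlap (338 to 1431 CPM in KP against 1490 to 2659 CPM in KPG1). In the sums, KP 1 (16909 CPM) and KP 4 (23344 CPM) were low, while KP 2, KP 3 and KP 5 (50323 to 54455 CPM) lay within the KPG1 range. Of the 5 epithelial markers, Krt8 and Krt18 did not overlap and were lower in KPG1, with Krt18 from 1515 to 2339 CPM in KP and from 815 to 1076 CPM in KPG1. Their list summed to 4189 to 5963 CPM in KP and 3109 to 3857 CPM in KPG1, with 4 fitted lower and 1 higher. Epcam (334 to 627 against 381 to 504 CPM), Cdh1 (637 to 1280 against 836 to 1055 CPM) and Krt19 (303 to 743 against 227 to 320 CPM) overlapped. Leukocyte markers summed to 38.4 to 60.3 CPM in KP and 27.5 to 51.7 CPM in KPG1. Of these, Ptprc, which encodes CD45, overlapped between the genotypes (5.21 to 9.98 CPM in KP), Itgam did not (6.15 to 16.6 against 2.51 to 5.80 CPM), and Cd3e was near 0, at most 0.189 CPM. Neutrophil markers summed to 6.06 to 19.9 against 5.46 to 20.9 CPM, and of the 4, 3 were fitted lower and 1 higher. S100a8 (1.29 to 4.32 against 0.200 to 1.08 CPM) and S100a9 (2.17 to 7.20 against 0.343 to 1.44 CPM) were lower in KPG1 without overlap, at low levels. Csf3r and Cxcr2 overlapped, Cxcr2 with 0.390 to 11.2 CPM in KP and 1.22 to 19.5 CPM in KPG1. Endothelial (195 to 561 against 301 to 863 CPM) and fibroblast markers (93.4 to 253 against 159 to 269 CPM) overlapped. So did alveolar type 1 (680 to 2470 against 1438 to 2849 CPM), club, ciliated, smooth muscle, mesothelial and erythroid markers. The summed proliferation markers overlapped as well, but all 5 were fitted higher in KPG1, with a median of 0.94, and Top2a was higher without overlap (10.4 to 54.9 CPM in KP against 55.6 to 90.4 CPM in KPG1). That median includes KP 5, whose sum was 41.5 CPM, against 186 to 244 CPM in the other KP tumors and 208 to 362 CPM in KPG1. A median without KP 5 was not computed. The part of these markers in the values of Areg, Hbegf and the ERK-induced genes was not tested.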

How the data were processed

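Poly(A) RNA of the CD45-negative fraction of 10 tumors was sequenced with a stranded kit. The authors deposited whole-number counts per gene, joined for all tumors and also singly, and a log2 table that was not used here. All 390170 values of the single tables equalled those of the joint table. The submitters' processing notes name bcl2fastq 2.17, cutadapt 1.4.2, HISAT2, featureCounts 1.4.4 and edgeR with mm10. The annotation release and the strand setting are not given in the sources used here, and without strand, reads of overlapping antisense genes cannot be told apart.

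From the counts as deposited, genes were kept by filterByExpr, libraries were scaled by TMM (edgeR 4.0.16), and KPG1 was compared with KP by voom and limma 3.58.1 in R 4.3.3, two-sided, with Benjamini-Hochberg adjustment over 16216 genes and a threshold of 0.05. This follows the study's choice of TMM, voom and limma. CPM are TMM-scaled, and log2 CPM carry a prior count of 2. TPM used exon lengths from GENCODE vM21 (mm10), which 37607 genes had. Pairs of members were tested by exact permutation within genotype in SciPy 1.17.1. Alternatives were edgeR's quasi-likelihood test, DESeq2 1.42.0, other scaling, filters and weights, covariates, and each library left out. The depth of at least 32427029 counts in every library gave the members between 25 (Nrg1) and 19350 (Hbegf) counts.

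Named genes were all members, Slc2a1, up to 3 genes with an unadjusted p under 0.05 from each pathway group, every pathway gene past the adjusted threshold, and the 3 genes most like the most abundant ligand and the most abundant receptor by CPM. Myc and further genes of the ERK-induced group were named after their values were seen. Members, pathway and marker lists were chosen with earlier results of these data known. The alleles that start the tumors are not reported here.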

Additional observations from a re-analysis of the deposited data

Results flagged for a closer look

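Of 40 groups of 5 tumors searched, covering each member, Slc2a1 and 9 pathway genes in each genotype, 1 held a tumor far from the others, where chance gives about 1 in 20, or 2. It was Lrrk1 in KPG1 2. Its level there was 7.79 log2 CPM, against 7.42 to 7.52 in the other KPG1 tumors, a gap that took up 0.721 of the range of the group. KPG1 2 was also the tumor with the lowest Areg and Hbegf. No member had such a tumor in either genotype.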

How the results depend on the processing

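Counts of calls moved with the test and the libraries. The 18 lower and 10 higher genes became 29 lower in edgeR, 423 lower and 125 higher in DESeq2, 31 lower without the filter, 29 lower at a mean of at least 20 TPM, 177 lower and 51 higher with a weight per library, and 4 and 4 with the sample number as a covariate. Lower members were 4 (Areg, Hbegf, Ereg and Egfr) in DESeq2, 2 with weights and 0 with the sample number, and lower pathway genes 10, 9 and 1. Slc2a1 passed in DESeq2 (-1.04) and with weights (-1.13). Leaving out each library in turn gave 1 to 223 lower and 3 to 71 higher genes, 0 to 2 lower members, 0 to 9 lower and 0 to 1 higher pathway genes, and -1.14 to -0.92 for Slc2a1. In each of these the largest counts came without KP 5. The cause was not tested. Areg stayed negative in all 18 alternatives and past the threshold in 7. Only Nrg1 and Erbb2 changed sign among the members, Nrg1 to 0.15 and Erbb2 to -0.040 with the sample number, and over the left-out libraries Nrg1 ran from -0.48 to 0.37 and Erbb2 from -0.025 to 0.10. A prior count of 0.5 moved no member's level by more than its SD.

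Replicate numbers did not pair the tumors: deviations of same-numbered tumors correlated between -0.16 and 0.08, and 1 of 10 libraries correlated best with its own number. With the replicate block, 1 gene was lower and 4 were higher, with 0 members and 0 lower pathway genes called.

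Correlations of pairs changed sign in 3 of 5 cases. Egfr with Erbb3 gave -0.21 as rho and -0.76 without the 2 farthest tumors, and Ereg with Hbegf -0.024 without the 2 farthest tumors. Left-out libraries, an alternative chosen after seeing the data, gave -0.080 to 0.22 for Areg with Ereg, 0.10 to 0.64 for Areg with Hbegf, -0.060 to 0.51 for Ereg with Hbegf, -0.46 to 0.35 for Egfr with Erbb3 and 0.59 to 0.81 for Erbb2 with Erbb3.

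Counts were lowest for Nrg1 and Egfr, with at least 25 and 34 in a library, and whether depth or the spread between tumors set the width of their intervals was not tested.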

Other observations

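Genes whose log2 CPM, after the genotype means were subtracted, followed Hbegf most closely over the 10 tumors were Gm12207 (Pearson r = 0.98), Cyr61 (r = 0.97) and Gm26759 (r = 0.95), among 16215 genes searched. Hbegf was taken as the most abundant ligand by mean CPM over all 10 tumors. It led Areg in KP (380 against 306 CPM), but Areg led in KPG1 (171 against 152 CPM). Cyr61 encodes a secreted matrix protein that is also an early response gene, and its log2 fold change was -1.91 (adjusted p in limma = 0.236). For Erbb3 they were Nsmf (r = 0.97), Rexo4 (r = 0.95) and Uck1 (r = 0.95), with log2 fold changes of -0.24, -0.04 and -0.06. These correlations were picked as the highest of many and share libraries and depth, so they are descriptions with no test. Epgn, which encodes epigen and was in the list of other ligands, had a log2 fold change of 0.54 with an interval from -0.69 to 1.78 (adjusted p in limma = 0.750), at up to 281 counts in a library.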
